A study of Mus musculus with 6 samples.

Results

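The translation initiation factors described here are the 53 mouse genes whose symbols in the deposited count table begin with Eif followed by a digit from 1 to 6. The symbols were matched by name, by a rule set with earlier results of these data known. Of the 64 symbols of that form among the 52997 genes in the table, 3 were left out by name (Eif2s3x, Eif2s3y and Eif1ax) and 8 were left out as numbered or unnumbered pseudogenes. The members were grouped by factor number, from eIF1 to eIF6. The filter on low counts was passed by 49 members, and 4 were not tested.

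Messenger RNA was measured in CD4+ T cells of pooled lymph nodes, described by the series as naive cells, from mice of 2 ages. The adult group held 3 mice of 7 weeks and the infant group 3 mice of 10 days, and each library came from 1 mouse. The strain was Foxp3-GFP (C57BL/6) for all 6 mice, in which regulatory T cells expressing Foxp3 carry a green fluorescent protein; the sample titles call the cells Tconv, and no treatment is named for either group. Each library was made from 1000 cells sorted in succession into lysis buffer, so that the values describe mRNA of a small number of cells from each mouse.

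Translation initiation brings the initiator methionyl-tRNA, the small ribosomal subunit and an mRNA together at a start codon. The factor eIF2 carries the initiator tRNA, eIF2B recharges eIF2 with GTP, and the many-subunit factor eIF3 holds the small subunit and the mRNA in place, while eIF1 and eIF1A guard the choice of the start codon. The eIF4 group binds the mRNA cap (eIF4E), scaffolds the complex (eIF4G) and unwinds the leader (the helicase eIF4A with its cofactors eIF4B and eIF4H); eIF5 and eIF5B complete subunit joining. Resting T cells hold protein synthesis low and raise it on activation, mainly through control of eIF4E by the 4E-BP proteins downstream of mTOR and of eIF2 by kinases that phosphorylate its alpha subunit.

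Library totals lay between 3421253 and 4887371 counts. Levels are given as CPM, counts scaled to a common library size, and the 3 counts taken as a floor equal 0.628 to 0.852 CPM, depending on the library and for counting error only. Adult replicate 2 stood apart in detecting 36373 genes, against 17992 to 21840 in the others. The labelled cell type was carried by its markers: Cd4, Cd3d, Cd3e, Cd3g, Lck and Cd5 together reached 5463 to 6333 CPM in the adult libraries and 5819 to 6065 CPM in the infant libraries, whereas the B cell, NK cell, gamma-delta T cell and erythroid marker lists each summed to at most 13.4 CPM, with Ncr1 and Hba-a1 at 0 in all 6 libraries. The CD8 T cell list summed to 31.3 to 41.8 CPM, with Cd8a at 0 to 1.93 CPM, the regulatory T cell list to 12.6 to 32.7 CPM, with Foxp3 at 4.49 to 9.18 CPM, and the myeloid list to 4.70 to 20.7 CPM. Of the myeloid genes, Itgam was the 1 tested, with infant libraries (9.63 to 13.8 CPM) above adult ones (4.70 to 7.76 CPM) and an edgeR adjusted p of 0.257. The stromal and endothelial list summed to 313 to 395 CPM, of which Pecam1 alone held 308 to 395 CPM. No gene of these 8 lists of other cells was called by edgeR. The Y-linked factor gene Eif2s3y had 0 counts in every library, and its X-linked copy Eif2s3x was at 16.5 to 21.6 CPM. Ddx3y, also Y-linked, had 0 counts in every library too. Xist was at 362 to 480 CPM in adult and 576 to 669 CPM in infant libraries.

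A two-sided test with edgeR's quasi-likelihood method, fitted across 11681 genes, called 2 of the 49 tested initiation factor genes lower in infant cells and none higher at an adjusted p (Benjamini-Hochberg) under 0.05. The 2 genes, Eif4a2 and Eif4b, encode a helicase of the cap-binding complex and the cofactor of that helicase. Over all tested genes 3.64% were called, 2.11% lower and 1.52% higher, and the members' shares were of that order. At an unadjusted p under 0.05 there were 5 members higher and 5 lower, against 8.25% and 9.02% of all tested genes. By DESeq2, 2 members were called higher (Eif4h and Eif5a) and 2 lower, where 2.29% and 3.03% of all tested genes were; by limma-voom, 1 was called higher (Eif4h) and 2 lower, beside 1.55% and 2.1%. The infant libraries all lay above the adult ones for 4 members (Eif2b3, Eif4enif1, Eif4h and Eif5a) and all below for 7 (Eif1, Eif3k, Eif4a2, Eif4b, Eif4e3, Eif4ebp1 and Eif5), close to the 11.2% and 11.6% of all tested genes (22.8% together) that did so.

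As a group the initiation factors stood at similar levels at both ages. Their summed level was 9345 ± 395 CPM in adult and 9265 ± 551 CPM in infant libraries (SD, n = 3 each). Per library this was 0.874% to 0.984% of the scaled count total of the tested genes. The log2 fold change, infant over adult, was above 0 for 27 members and below 0 for 22, with a median of 0.05 beside a median of -0.0017 for all tested genes; without adult replicate 2 the members' median was -0.0038. Its values ran from -1.52 to 0.44, and 47 of 49 members were within 1.5-fold. Summed by factor, eIF2 genes were at 779 ± 15.7 CPM in adult and 833 ± 34.1 CPM in infant libraries and eIF5 genes at 976 ± 51.6 and 1079 ± 60.4 CPM. The eIF1 genes summed to 340.1 ± 12.2 and 339 ± 20.6 CPM, and the eIF4 genes to 2869 ± 246 and 2714 ± 78.0 CPM.

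**Figure D1:**
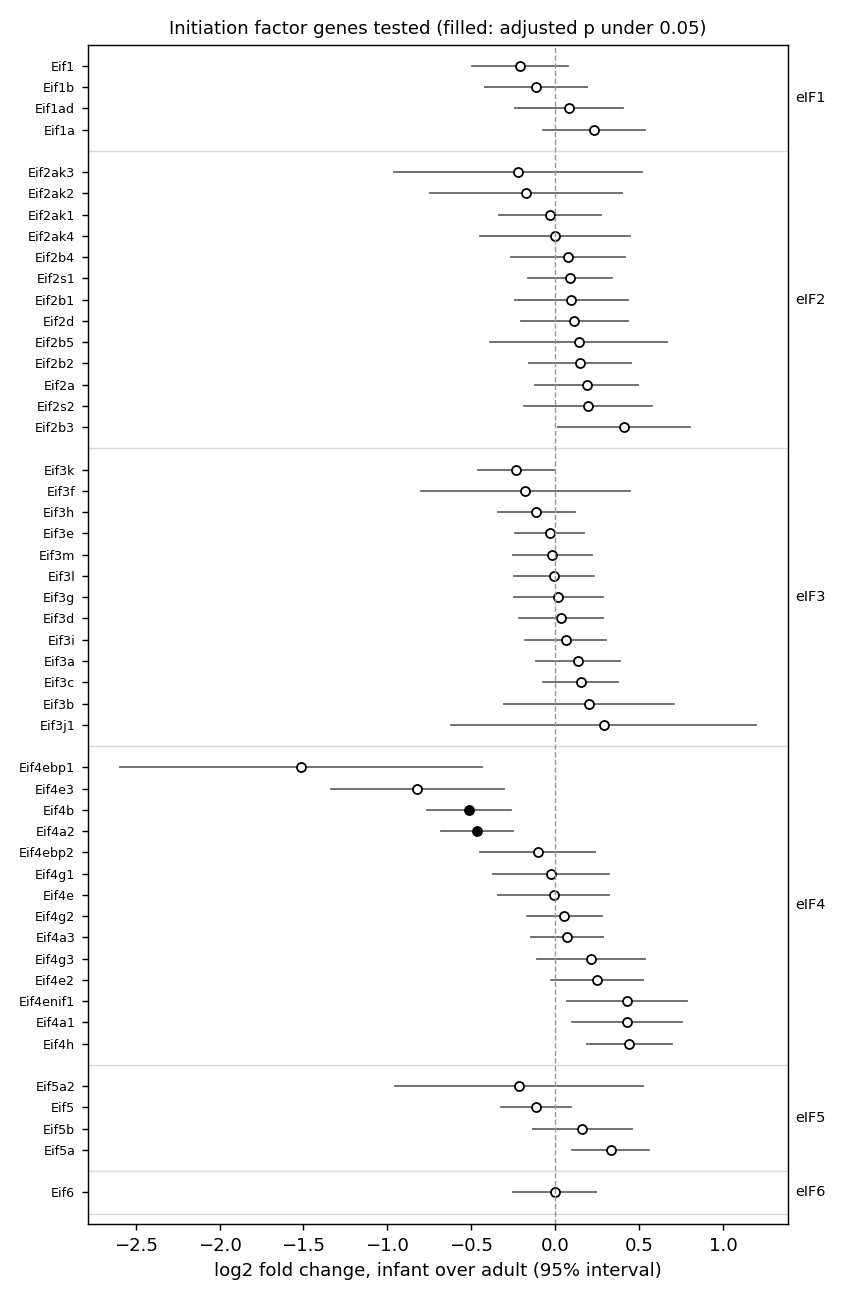
Log2 fold change, infant over adult, for each of the 49 tested initiation factor genes, grouped by factor number and sorted within a group, with lines for the 95% interval and filled points for an adjusted p under 0.05. The points of Eif4a2 and Eif4b are filled and lie left of 0; most intervals of the eIF1, eIF2, eIF3 and eIF5 genes cross 0, and the intervals of Eif4ebp1 and Eif4e3 are wide.

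Eif4a2 encodes one of a pair of near-identical eIF4A helicases that unwind the mRNA leader. It lies at chr16:23107444-23114136 on the plus strand of mm10. The adult libraries held 686, 588 and 675 CPM and the infant libraries 488, 464 and 459 CPM. Every infant library was below every adult library, and the infant libraries lay close together. The level fell by 0.47 ± 0.10 on the log2 scale (SE), 1.38-fold, with an edgeR adjusted p of 0.0180. The gene overlaps Rfc4, a subunit gene of the replication clamp loader, on the opposite strand, which was at 14.4 to 25.6 CPM, and the protocol does not mark strand. In bulk samples such as these, fewer cells that express a gene and less of its RNA per cell cannot be told apart.

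Eif4b encodes the RNA-binding cofactor that stimulates the eIF4A helicase. It lies at chr15:102073773-102097173 on the plus strand. Its level was 643, 517 and 703 CPM in the adult libraries and 420.2, 437 and 448 CPM in the infant libraries. The lowest adult library, replicate 2, was still above all infant libraries. The level fell by 0.51 ± 0.12 on the log2 scale (SE), 1.43-fold, with an edgeR adjusted p of 0.0240. Leaving out adult replicate 2 gave adjusted p values of 0.00287 for Eif4a2 and 0.00132 for Eif4b, whereas leaving out any one of the other 5 libraries took both genes past 0.05, to at most 0.1397 and 0.156, with log2 fold changes of -0.42 to -0.54. Without the filter on low counts the values were 0.215 and 0.116.

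Markers of dividing and activated cells moved with the same groups. The dividing-cell list (Mki67, Top2a, Ccna2, Ccnb1, Birc5 and Nusap1) summed to 7.52 to 28.7 CPM in adult and 72.9 to 154 CPM in infant libraries, with 4 of 5 tested members called higher. The activated T cell list (Myc, Cd44, Cd69, Nr4a1, Egr1 and Il2ra) summed to 488 to 593 and 758 to 873 CPM, with 3 of 6 called higher. The part of these cells in the differences of Eif4a2, Eif4b and the other genes below was not tested.

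The near copy Eif4a1 and the other cofactor gene, Eif4h, had values that lay the other way, although neither passed the test. Eif4a1 was at 89.0, 90.9 and 126 CPM in adult and 143, 119 and 150 CPM in infant libraries, and adult replicate 3 overlapped the infant range. Its log2 fold change was 0.43 ± 0.15, 1.35-fold, with an edgeR adjusted p of 0.154. Eif4h was at 312, 321 and 392 CPM in adult and 497, 412 and 483 CPM in infant libraries, without overlap. Its log2 fold change was 0.44 ± 0.12, 1.36-fold, with an edgeR adjusted p of 0.0533, and it passed 0.05 in 6 of 9 other settings, DESeq2 and limma-voom among them, and in 1 of 6 fits that left out a library, whose adjusted p values ran from 0.0465 (without adult replicate 3) to 0.227 (without adult replicate 1). Eif4a3, the eIF4A relative of the exon junction complex, was at 254 ± 8.13 CPM in adult and 266 ± 10.0 CPM in infant libraries (SD, n = 3 each), a log2 fold change of 0.07 ± 0.10.

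**Figure D2:**
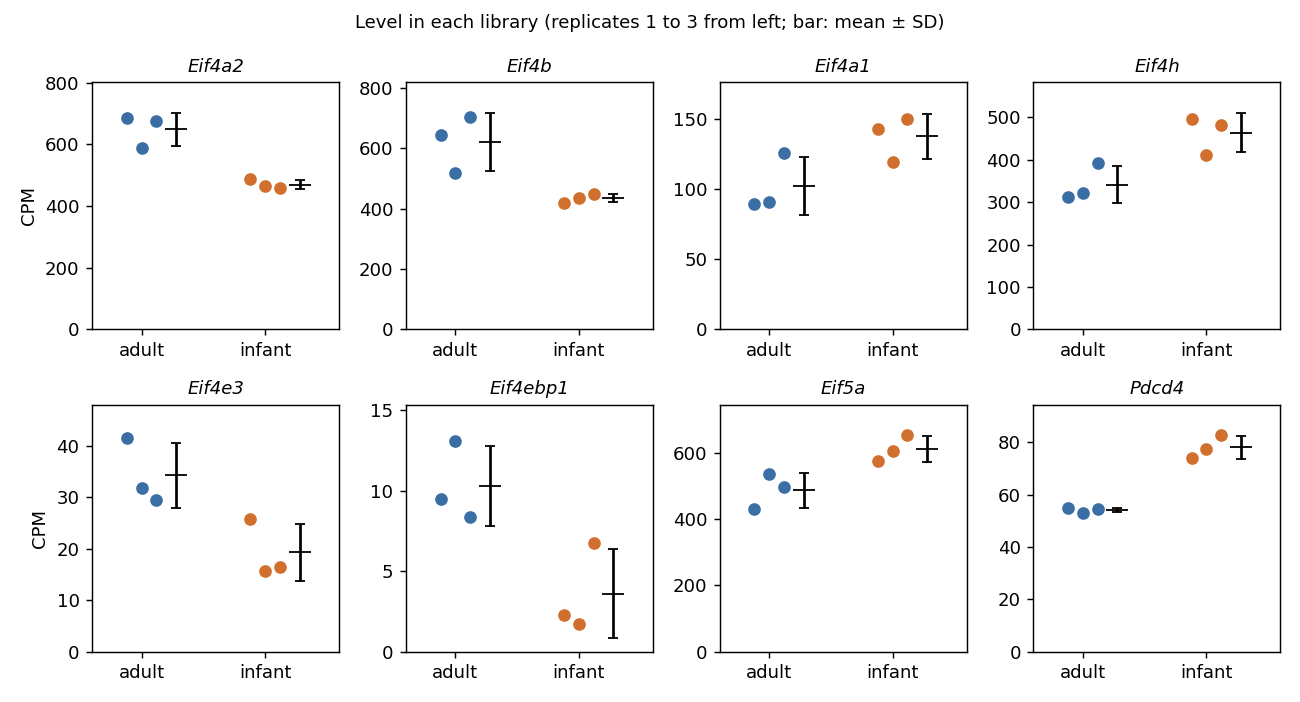
CPM in each of the 6 libraries for 7 initiation factor genes and Pdcd4, an inhibitor of eIF4A, on axes that start at 0, with the mean and SD beside the points. The infant points lie below all adult points for Eif4a2, Eif4b, Eif4e3 and Eif4ebp1 and above all of them for Eif4h, Eif5a and Pdcd4, and the Eif4a1 points overlap.

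The balance within each pair was computed per kilobase of exon, since the genes differ in length. Eif4a1 made up 13.8%, 16.0% and 18.6% of the sum of Eif4a1 and Eif4a2 in the adult libraries and 26.5%, 24.1% and 28.7% in the infant libraries. The groups did not overlap, with means of 16.1% ± 2.44 and 26.4% ± 2.32 (SD, n = 3 each), a difference of 10.3 percentage points. Eif4h made up 28.1%, 33.3% and 31.0% of the sum of Eif4h and Eif4b in the adult libraries and 48.8%, 43.2% and 46.5% in the infant libraries. Here too the groups did not overlap, with means of 30.8% ± 2.65 and 46.1% ± 2.81, a difference of 15.4 percentage points. The pairs were chosen after the genes' values had been seen, and with 3 mice against 3 an exact permutation test cannot go below p = 0.1, so that the shares are given as a description.

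**Figure D3:**
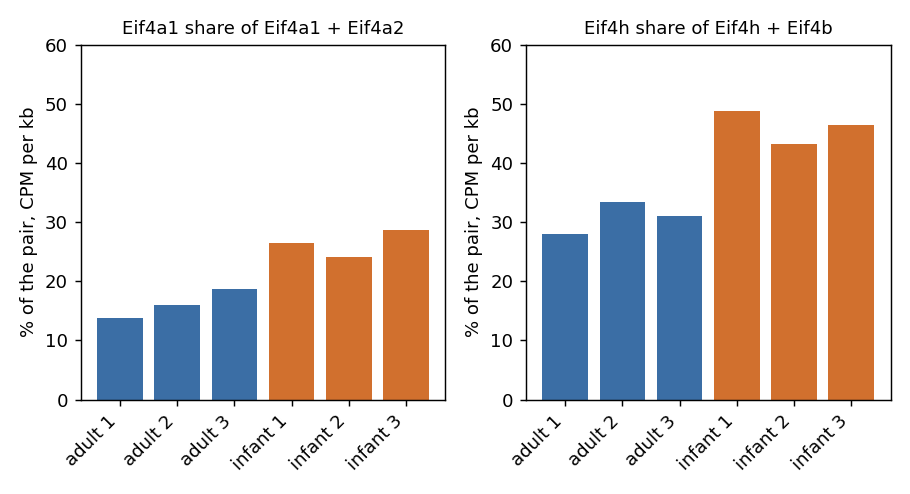
Share of Eif4a1 in the sum of Eif4a1 and Eif4a2 (left) and of Eif4h in the sum of Eif4h and Eif4b (right), in percent of CPM per kilobase of exon, with 1 bar for each library. All 3 infant bars stand above all 3 adult bars in both panels.

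These shares depend on how reads that match several genes were counted, a step that the sources used here do not state. Of the windows of 25 bases, the read length, in the annotated transcripts of Eif4a1, 32.0% also occurred in transcripts of other genes, most of them in the pseudogene Eif4a-ps4, which had 1 to 8 counts in a library, and 0% in those of Eif4a2. The share was 22.4% for Eif4a2, 9.01% for Eif4b and 0.757% for Eif4h.

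The promoters of these 4 genes are shown because the genes form pairs of like function with values that lay in opposite directions. The sequences are from RefSeq (GRCm38.p6, the assembly of mm10) and run from 5′ to 3′ up to the RefSeq or the GENCODE start of the gene, whichever lies further upstream, with the canonical E-box CACGTG, a motif bound by Myc and related factors, in capitals.
Eif4a1: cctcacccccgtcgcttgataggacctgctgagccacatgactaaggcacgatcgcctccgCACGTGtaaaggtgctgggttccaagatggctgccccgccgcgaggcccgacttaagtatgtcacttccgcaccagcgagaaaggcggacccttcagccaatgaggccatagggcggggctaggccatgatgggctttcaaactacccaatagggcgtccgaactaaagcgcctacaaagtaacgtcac
Eif4a2: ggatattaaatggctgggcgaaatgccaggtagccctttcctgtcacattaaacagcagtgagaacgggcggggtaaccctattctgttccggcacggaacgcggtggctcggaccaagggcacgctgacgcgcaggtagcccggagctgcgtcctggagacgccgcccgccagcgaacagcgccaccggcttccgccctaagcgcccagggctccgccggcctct
Eif4b: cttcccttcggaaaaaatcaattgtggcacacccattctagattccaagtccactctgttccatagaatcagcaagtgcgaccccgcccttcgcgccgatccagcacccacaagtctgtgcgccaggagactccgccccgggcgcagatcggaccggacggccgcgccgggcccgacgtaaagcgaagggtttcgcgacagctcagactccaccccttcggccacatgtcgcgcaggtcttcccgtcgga
Eif4h: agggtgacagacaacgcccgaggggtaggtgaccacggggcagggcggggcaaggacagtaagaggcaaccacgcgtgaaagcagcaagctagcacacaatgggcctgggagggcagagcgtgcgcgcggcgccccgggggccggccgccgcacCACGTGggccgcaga
They lie at chr11:69672424-69672673 (Eif4a1, minus strand), chr16:23107218-23107443 (Eif4a2, plus strand), chr15:102073523-102073772 (Eif4b, plus strand) and chr5:134639491-134639659 (Eif4h, minus strand). The E-box began 189 bases before the RefSeq start of Eif4a1 and 96 bases before that of Eif4h, and the windows of Eif4a2 and Eif4b held none. For Eif4a2 and Eif4h the GENCODE start lies upstream of the RefSeq start, so that these printed sequences, of 226 and 169 bases, end before the RefSeq start.

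The motifs were chosen after the values and sequences had been seen. A promoter window, 250 bases before to 50 after the start, was found for 41 of the 53 members. A gene with several windows was counted once, as holding a motif if any of its windows held it. CACGTG, which reads the same on both strands, was in 10 of the 41 (24.4%). The shares were 12.4% of the tested genes with a window and 8.09% of all genes with a window. The 10 were Eif1b, Eif3a, Eif3f, Eif3k, Eif4a1, Eif4e, Eif4g1, Eif4h, Eif5a and Eif5a2. Their log2 fold changes ran from -0.23 to 0.44 with a median of -0.02, and those of the 30 tested members whose windows held no E-box ran from -0.51 to 0.43 with a median of 0.08. They were above 0 for 4 of the 10 and for 19 of the 30, given as a description of a split made after the values were seen. The ATF4-type element TGATGCAA, searched on both strands, was in none of the 41 members, against 0.685% of tested genes and 1.03% of all genes with a window. AAGATGGC, the core of the YY1 motif, was in 3 of the 41 (7.32%), near the 5.93% of tested genes, and in 3.19% of all genes with a window. A match is a run of letters and not evidence of binding.

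Eif4e, which encodes the main cap-binding protein, was at 56.9 ± 7.78 CPM in adult and 56.7 ± 1.24 CPM in infant libraries (SD, n = 3 each), a log2 fold change of -0.0083 ± 0.15 whose sign turned with the scaling. Eif4e2, the relative that acts mainly as a repressor, had a log2 fold change of 0.25 ± 0.13 (edgeR adjusted p = 0.348). Per kilobase of exon, Eif4e averaged 9.45 CPM and Eif4e2 18.2 CPM, against 27.6 CPM for Eif4a1, 105 CPM for Eif4a2 and 122 CPM for Eif4a3.

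Eif4e3 encodes a further cap-binding protein of the same family. Its level was 41.5, 31.8 and 29.5 CPM in the adult libraries and 25.8, 15.7 and 16.4 CPM in the infant libraries, and the groups did not overlap. The log2 fold change was -0.82 ± 0.24, 1.77-fold, and the edgeR adjusted p of 0.0798 missed the threshold. With no filter on low counts it was 0.0349, and in the 6 fits that left out a library it was 0.0516 to 0.294. Gm20696, a gene on the same strand at 129 to 166 CPM, overlaps it, and 14.5% of its 25-base windows occur in transcripts of other genes.

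Eif4ebp1 encodes 4E-BP1, the mTOR-controlled inhibitor that keeps eIF4E from eIF4G, and had the lowest fold change of the 49 tested members. Its counts were 39, 46 and 39 in the adult libraries and 11, 7 and 28 in the infant libraries, or 9.46, 13.1 and 8.33 CPM against 2.30, 1.69 and 6.76 CPM. Infant replicate 3 was well above the other infant libraries and below the adult ones. The log2 fold change was -1.52 ± 0.50, 2.86-fold, with a 95% interval of -2.60 to -0.44 and an edgeR adjusted p of 0.125. Without infant replicate 3 it was -2.33, with an adjusted p of 0.0416; leaving out any of the other 5 libraries gave -1.18 to -1.65 and adjusted p values of 0.184 to 0.356. The sister gene Eif4ebp2 was more abundant, at 87.0 ± 13.8 and 80.9 ± 13.3 CPM, with a log2 fold change of -0.10 ± 0.16. Per kilobase, Eif4ebp1 made up 19.7%, 31.8% and 20.4% of the sum of these genes in the adult libraries and 6.09%, 5.16% and 21.0% in the infant libraries, where infant replicate 3 lay within the adult range.

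Eif4enif1, which encodes the 4E-T protein that carries eIF4E into the nucleus and into P-bodies, was at 52.9, 48.3 and 62.6 CPM in adult and 67.6, 89.5 and 63.8 CPM in infant libraries. The groups only just failed to overlap, and the log2 fold change of 0.43 ± 0.17 had an edgeR adjusted p of 0.197. The scaffold genes differed less. Eif4g1 was at 116 ± 18.0 and 113 ± 23.9 CPM, Eif4g3 at 83.2 ± 15.8 and 96.5 ± 5.88 CPM, and Eif4g2, whose product drives cap-independent initiation, at 335 ± 13.9 and 348 ± 28.1 CPM (SD, n = 3 each). Their log2 fold changes were -0.03, 0.21 and 0.05.

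The 4 eIF1 genes, which act in start codon choice or resemble those that do, did not pass the test by edgeR, DESeq2 or limma-voom, and none had an unadjusted p under 0.05. Eif1 was at 92.1, 116 and 92.9 CPM in the adult libraries and 86.1, 90.2 and 83.6 CPM in the infant libraries, and the groups did not overlap. Its log2 fold change was -0.21 ± 0.13 with an edgeR adjusted p of 0.474. The near copy Eif1b had -0.11 ± 0.14. Eif1a, the autosomal eIF1A gene, was at 89.2, 75.0 and 84.4 CPM against 81.9, 103 and 107 CPM, with overlap and a log2 fold change of 0.23 ± 0.14, and Eif1ad, a relative of eIF1A, had 0.08 ± 0.15. Eif1ax, the X-linked eIF1A gene that was not a member, was at 71.8 to 91.0 CPM.

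Within eIF2, the alpha subunit gene Eif2s1 had the steadiest level, with 122, 127 and 112 CPM in adult and 122.5, 129 and 132 CPM in infant libraries. The ranges overlapped, and the log2 fold change was 0.09 ± 0.12. Eif2s2, which encodes the beta subunit, was at 35.2 ± 2.04 and 40.3 ± 5.24 CPM (SD, n = 3 each), a log2 fold change of 0.19 ± 0.18. Eif2a and Eif2d, which encode factors that can deliver initiator tRNA without eIF2, had log2 fold changes of 0.19 ± 0.14 and 0.11 ± 0.15.

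All 5 eIF2B subunit genes had a log2 fold change above 0, from 0.08 (Eif2b4) to 0.41 (Eif2b3), and none passed by edgeR, DESeq2 or limma-voom, with 1 (Eif2b3) at an unadjusted p under 0.05. Of all 11681 tested genes, 5811 had a log2 fold change above 0 and 5870 below. Eif2b3, which encodes the gamma subunit, was at 32.0, 37.5 and 27.3 CPM in adult and 39.8, 43.5 and 45.2 CPM in infant libraries. The groups did not overlap, with a log2 fold change of 0.41 ± 0.18 and an edgeR adjusted p of 0.264. Eif2b2, the highest of the 5 per kilobase of exon at 52.4 CPM, was at 93.6 ± 16.7 and 104 ± 3.48 CPM. The kinases that phosphorylate eIF2 alpha had 4 of 4 log2 fold changes below 0, from -0.22 (Eif2ak3, the kinase PERK of the endoplasmic reticulum) to -0.0015 (Eif2ak4, the amino acid sensor GCN2), and none passed by any of these tools or had an unadjusted p under 0.05. Eif2ak2, the interferon-induced kinase PKR, had -0.17 ± 0.27, with 54.1 CPM in adult replicate 1 against 26.8 to 42.8 CPM in the others, and Eif2ak1, the haem-regulated kinase, had -0.03 ± 0.14.

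The eIF3 subunit genes had the highest summed level of the 6 factor numbers, with 4217 ± 173 CPM in adult and 4137 ± 449 CPM in infant libraries, and none of the 13 tested passed by edgeR, DESeq2 or limma-voom, with 1 (Eif3k) at an unadjusted p under 0.05. Their log2 fold changes ran from -0.23 (Eif3k) to 0.29 (Eif3j1), with 7 above 0 and 6 below. Per kilobase of exon Eif3h was highest, at 318 CPM on average over the libraries, and Eif3j1 lowest among those tested, at 0.952 CPM. Of the 25-base windows of Eif3h, 32.7% also occurred in transcripts of other genes. The exon length counts all annotated exons of a gene, so that the ranking depends in part on the annotation. The large scaffold subunit genes Eif3a and Eif3c averaged 48.6 and 98.8 CPM per kilobase, and Eif3b, which completes the core, only 9.90. Eif3k, for a small accessory subunit, was at 438, 405 and 407 CPM in adult and 316, 361 and 387 CPM in infant libraries, without overlap, and its log2 fold change of -0.23 ± 0.11 had an edgeR adjusted p of 0.279. For Eif3e, the log2 fold change was -0.03 with a 95% interval of -0.24 to 0.17, among the narrowest of the members.

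Eif3f, a subunit with a deubiquitinase-type fold, varied far more among libraries than its partners. Its level was 720 (adult replicate 1), 684 (adult replicate 2) and 387 CPM (adult replicate 3), and then 269, 512 and 803 CPM in infant replicates 1 to 3, a range of 2.98-fold. Both the lowest and the highest library were infant, and the log2 fold change of -0.18 ± 0.29 (edgeR adjusted p = 0.825) became 0.15 without infant replicate 1. The SD within groups was 0.66 on the log2 scale, the fifth largest of 888 genes above 200 CPM, whose median was 0.12. The 9 other eIF3 genes of that abundance had 0.06 to 0.16. With 1 library from each mouse, spread among mice and spread from library making cannot be told apart. Only 0.554% of the 25-base windows of Eif3f occurred in transcripts of other genes. Without Eif3f, the summed level of the eIF3 genes was 3620 ± 251 CPM in adult and 3609 ± 182 CPM in infant libraries.

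**Figure D4:**
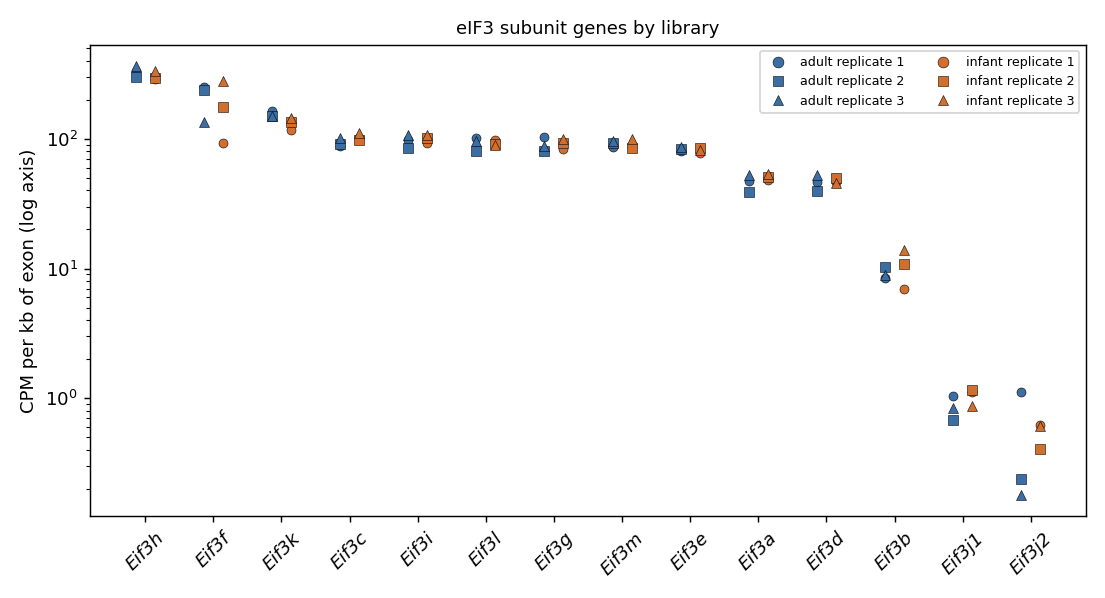
CPM per kilobase of exon of the 14 eIF3 subunit genes in each library, on a log axis, with adult libraries in blue, infant libraries in orange and a marker shape for each replicate number. The points of most genes lie together, those of Eif3f spread over 2.98-fold with infant libraries at both ends, and Eif3j1 and Eif3j2 lie far below the others.

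Eif5a, which encodes a hypusine-containing factor that helps ribosomes through difficult peptide bonds in elongation and termination, was second to Eif3h among the members per kilobase of exon, at 231 CPM. It was at 430, 536 and 496 CPM in the adult libraries and 577, 607 and 655 CPM in the infant libraries, and the groups did not overlap. The log2 fold change was 0.33 ± 0.11, 1.26-fold, with an edgeR adjusted p of 0.115, a DESeq2 adjusted p of 0.0450 and, in edgeR without 1 library, adjusted p values from 0.0332 (adult replicate 2 left out) to 0.377 (adult replicate 1 left out), under 0.05 in 1 of 6 cases. It passed in 1 of 9 other settings, DESeq2. Its sister gene Eif5a2 was at 9.87 ± 1.55 and 8.49 ± 2.29 CPM, and made up 0.503% to 1.13% of the pair per kilobase. Eif5, for the GTPase activator of eIF2, had a log2 fold change of -0.11 ± 0.10 with infant libraries all below adult ones (411, 399 and 406 CPM against 352, 385 and 389 CPM). Eif5b, for the GTPase of subunit joining, had 0.16 ± 0.14.

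Eif6 encodes a factor that keeps the ribosomal subunits apart until the large subunit is mature. Its level was 168, 147 and 176 CPM in the adult libraries and 154, 163 and 175 CPM in the infant libraries. The group means were both 164 CPM, and the log2 fold change had a 95% interval of -0.25 to 0.25.

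The 4 members that were not tested were near or below the floor. Eif4e1b, a cap-binding gene of the germ line, had 0 counts in all libraries, which allows up to 0.628 to 0.852 CPM. Eif4ebp3 had 0 to 7 counts, Eif3j2 2 to 11 counts, and Eif2c5, an older symbol of the Argonaute family that matches the name rule and is not an initiation factor, 4 counts in adult replicate 2 and none elsewhere. Eif3j2 shares 95.8% of its 25-base windows with other transcripts, and Eif3j1 54.4%, so their levels are uncertain.

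Beyond the named factors, a list of 44 other genes of initiation held 42 that were tested, of which 2 were called higher (Pdcd4 and Bzw1) and 1 lower (Mif4gd). The background was 1.52% higher and 2.11% lower, and the list's median log2 fold change was 0.06. For 7 of these genes all infant libraries lay above all adult ones and for 4 below, against 11.2% and 11.6% of all tested genes. Each of the 3 calls was lost when any 1 library was left out, and with the replicate number as a block (adjusted p = 0.0855 for Pdcd4, 0.0640 for Bzw1 and 0.0773 for Mif4gd). The same markers of dividing and activated cells moved with these groups.

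Pdcd4 encodes a protein that sequesters eIF4A and so restrains the helicase. It was at 54.8, 53.1 and 54.5 CPM in the adult libraries and 74.1, 77.4 and 82.8 CPM in the infant libraries, with tight groups that did not overlap. The log2 fold change was 0.53 ± 0.14, 1.44-fold, with an edgeR adjusted p of 0.0460. Mif4gd encodes a partner of the histone mRNA stem-loop binding protein. It was at 83.6, 78.7 and 84.2 CPM against 58.2, 55.9 and 56.8 CPM, again without overlap, and the level fell by 0.53 ± 0.13 on the log2 scale, with an edgeR adjusted p of 0.0405. It overlaps Mrps7 on the opposite strand, a gene at 47.0 to 73.9 CPM.

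Bzw1 encodes an eIF5 mimic that tightens start codon choice. It was at 349, 284 and 388 CPM in adult and 440.1, 490 and 474 CPM in infant libraries, without overlap, with a log2 fold change of 0.46 ± 0.12, 1.38-fold, and an edgeR adjusted p of 0.0485. All 8 genes of its list (scanning helicases, reinitiation, recycling and eIF5 mimics) had a log2 fold change above 0, from 0.12 to 0.46 with a median of 0.39, and 1 passed the test. Of all 11681 tested genes, 5811 were above 0. Bzw2, a relative of Bzw1, had a log2 fold change of 0.42 ± 0.13 (edgeR adjusted p = 0.0859), and Denr, a factor of reinitiation and recycling, had 0.40 ± 0.13 (edgeR adjusted p = 0.108).

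The genes that control eIF2 phosphorylation and its ATF4 arm held 9 of 11 log2 fold changes below 0, with a median of -0.15. Of all 11681 tested genes, 5870 were below 0. None of the 11 passed by edgeR, DESeq2 or limma-voom, and 2 (Atf4 and Nck1) had an unadjusted p under 0.05. Atf4, the transcription factor whose mRNA is translated when eIF2 is phosphorylated, was at 128, 122 and 127 CPM in the adult libraries and 103, 81.3 and 108 CPM in the infant libraries. The groups did not overlap, and the log2 fold change of -0.37 ± 0.13 had an edgeR adjusted p of 0.161. Among the cap and poly(A) partners the log2 fold change was above 0 for 6 and below 0 for 6, with Pabpc1, the poly(A)-binding protein, at 753 ± 39.7 and 730.0 ± 72.9 CPM (SD, n = 3 each). Of the mitochondrial factor genes, Mtif2 had 0.31 ± 0.16 (edgeR adjusted p = 0.342) and Mtif3 had -0.15 ± 0.19. Ctif and Atf5 had too few counts to be tested.

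**Figure D5:**
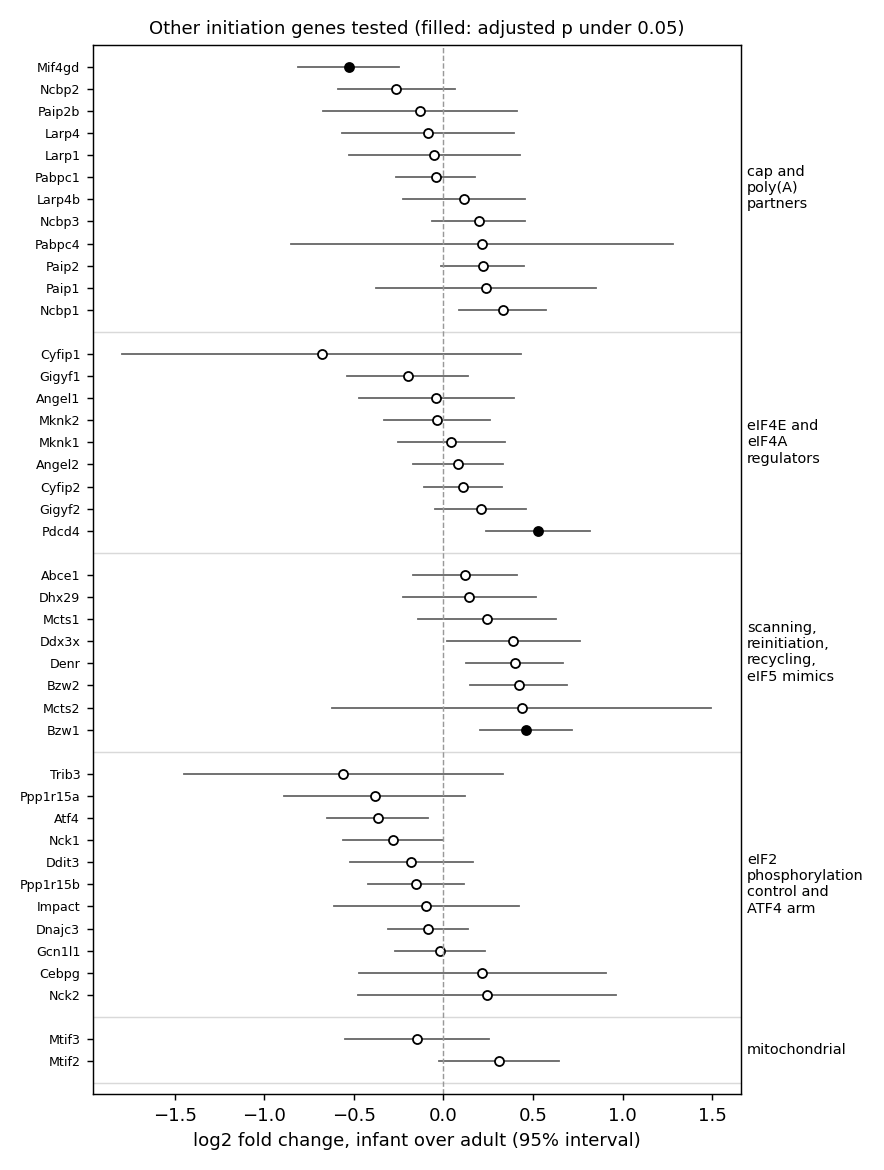
Log2 fold change, infant over adult, for the 42 tested other genes of initiation, grouped by list and sorted within each, with lines for the 95% interval and filled points for an adjusted p under 0.05. Pdcd4 and Bzw1 are filled to the right of 0 and Mif4gd to the left; all 8 points of the scanning, reinitiation and recycling list lie right of 0, and 9 of 11 of the eIF2 phosphorylation list lie left of it.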

How the data were processed

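The authors deposited raw counts per gene for 6 libraries, made by STAR 2.5.4 alignment to mm10 and featureCounts, per the submitters' processing notes. Not given in the sources used here were the featureCounts version, the annotation and the handling of reads with several matches. Per the labels' protocols, cDNA was primed with oligo(dT), amplified by PCR, fragmented with Nextera XT and read in pairs of 25 bases, without molecular identifiers or strand.

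The deposited counts were fitted with edgeR 4.0.16 under R 4.3.3 (filterByExpr with a minimum count of 10 and a minimum total of 15, TMM factors, quasi-likelihood F test, Benjamini-Hochberg adjustment at 0.05 over 11681 genes, no covariate); the fit was tested on simulated data. CPM used TMM-scaled totals over the tested genes. Standard errors were derived from the F statistic (log2 fold change over root F, without sign). The biological coefficient of variation was 0.184. P-values measure the spread among libraries of a group, in which spread among mice and spread from library making cannot be told apart. No replicate pair looked like a library deposited again: chi-square over degrees of freedom was 5.07 to 13.0, against counting error alone, which treats PCR copies as separate molecules. Positions and exon lengths came from GENCODE on mm10 and matched all 53 members. The exon length of a gene counted all its annotated exons, whether or not the cells used them. Where the rule excluded symbols ending in -ps, numbered forms were excluded too.

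The members and lists were chosen with earlier results of these data known. Genes were named if they passed the test, if they had the highest CPM or smallest p of their factor number, or if they were among the 3 further members of smallest p; others named were chosen after their values had been seen. Alternatives were DESeq2 1.42.0, limma-voom (limma 3.58.1), other size factors, other filters, thinning to 3421253 counts, a replicate block and leaving out each library.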

Additional observations from a re-analysis of the deposited data

How the results depend on the processing

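The count of initiation factor genes called higher, 0 by edgeR, was 2 by DESeq2 and 1 by limma-voom, with library totals, with upper-quartile factors, with the stricter filter and after thinning to equal depth; it was 0 to 1 when a library was left out. The count called lower was 2 and became 1 without the filter on low counts (Eif4e3, not Eif4a2 or Eif4b) and 0 to 2 when a library was left out: 2 without adult replicate 2, 1 (Eif4ebp1) without infant replicate 3, and 0 without any of the other 4. Leaving out a library also leaves fewer mice to estimate the spread. The count of other initiation genes called higher, 2, was 3 by DESeq2 and with library totals, 1 by limma-voom and after thinning, and 0 without the filter, with the replicate block and without each library in turn; the count called lower, 1, was 0 without the filter, with the replicate block, after thinning and without each library. Same-numbered mice did not deviate together over all tested genes (correlations of -0.047, -0.011 and -0.092). An effect on few genes would barely move these correlations, so that they cannot show whether the numbers pair mice. The block left the 2 lower members called and none higher. The members' median log2 fold change ran from -0.0038 (without adult replicate 2) to 0.09 (without infant replicate 1), moves smaller than the spread between replicates. The sign turned for Eif6 with DESeq2 size factors (0.00087), DESeq2 (0.00031), library totals (0.0064), no filter (0.035), the replicate block (0.0013) and thinning (0.0067), and ran from -0.0695 to 0.051 without a library. It turned for Eif4e with library totals (0.0019), no filter (0.027), the replicate block (0.0011) and thinning (0.088), and ran from -0.093 to 0.0997 without a library. Leaving out a library gave -0.22 to 0.022 for Eif4ebp2, above 0 without adult replicate 1 or infant replicate 3, and -0.61 to 0.147 for Eif3f, above 0 without infant replicate 1. The cause was not tested. Depth limits Eif4ebp1, Eif3j1 and Eif5a2, which had under 50 counts in every library.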

Other observations

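The spread of Eif3f among libraries was set beside that of other abundant genes, and Rps2 was picked from them, after the values had been seen. Rps2, a ribosomal protein gene of the small subunit, had 675, 463 and 274 CPM in the adult libraries and 179, 398 and 754 CPM in the infant libraries, and Eif3f had 720, 684 and 387 CPM, then 269, 512 and 803 CPM. In both genes the libraries fell in the same order within each group, with adult replicate 1 highest and adult replicate 3 lowest among the adults, and infant replicate 3 highest and infant replicate 1 lowest among the infants. The replicate numbers are not known to pair adult with infant mice. The log2 fold change of Rps2 was -0.09. The order of the libraries in the other genes of large spread is not shown.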
